A study of Homo sapiens with 12 samples.

Results

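Transcript levels in untreated RBE cells were set against those in untreated HCCC9810 cells, both human lines of a bile duct cancer that arises inside the liver, intrahepatic cholangiocarcinoma. The comparison used 6 of the 12 libraries of the study, chosen by the line and the word control in the column headers: RBE libraries 1, 2 and 3, and HCCC9810 libraries 7, 8 and 9. The other 6 libraries came from the same lines after 24 h with 5 µM anlotinib, an oral inhibitor of several receptor tyrosine kinases, and served here as a second, separate view of the line difference. Both lines were grown in the same serum-containing medium, and the labels do not say whether control cultures received the solvent of the drug. Each line was derived from a single tumour, so differences of donor, genome and culture history cannot be told apart.

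The header numbers disagree with the sample titles, in which the same numbers belong to libraries of the other treatment. Groups were taken from the words. If the numbers were followed, the columns used here as controls would be those of anlotinib-treated cells, and the contrast of untreated lines would have the values given here for the anlotinib libraries.

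Bile duct cells, or cholangiocytes, share a precursor with hepatocytes, and their identity is set by transcription factors that include SOX9. Small ducts are lined by cuboidal cells that secrete bicarbonate and water, whereas large ducts and their glands contain cells that secrete mucin, and intrahepatic cholangiocarcinomas are sorted by pathologists into a small duct and a large duct type along these lines. Receptor tyrosine kinases and their ligands, the secreted proteases, the mucins and the genes of antigen presentation are among the programs by which such tumours and lines are described.

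The lines were far apart. Of the 18035 genes with enough counts to be tested, 11558 (64.1%) differed at an adjusted p below 0.05, by the quasi-likelihood test of edgeR and Benjamini-Hochberg correction. In RBE 5676 were higher (31.5%) and 5882 lower (32.6%), and the median log2 fold change over all genes tested was -0.01. At least 4-fold differences in the same test were found for 1447 genes higher in RBE (8.02%) and 1571 lower in RBE (8.71%), and the CPM ranges of the 3 RBE and 3 HCCC9810 libraries did not overlap for 12470 genes (69.1%). These percentages are the background for the counts of each gene list. CPM are counts scaled to the normalised library size, means are given ± SD with n = 3 libraries per line, and log2 fold changes are RBE over HCCC9810 ± SE. A value with ± in brackets that names no unit is such a log2 fold change, and each gene called higher or lower passed the test at an adjusted p below 0.05. Total counts ran from 17779598 to 31956474 in the RBE libraries and from 16240478 to 22567927 in the HCCC9810 libraries.

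The anlotinib libraries share none with this comparison. In them 12536 genes differed between the lines (69.5%), 35.5% of those tested higher in RBE and 34% lower, and 9230 of the 11558 genes called in the controls were called there in the same direction, which is 79.9% of the control calls and 73.6% of the anlotinib calls. Another 254 were called in the opposite direction. Of the 3018 genes with a difference of at least 4-fold in the controls, 2887 were called in the same direction under anlotinib. The size of the difference changed between the conditions for 2990 genes (16.6%), by the test of the interaction.

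**Figure D1:**
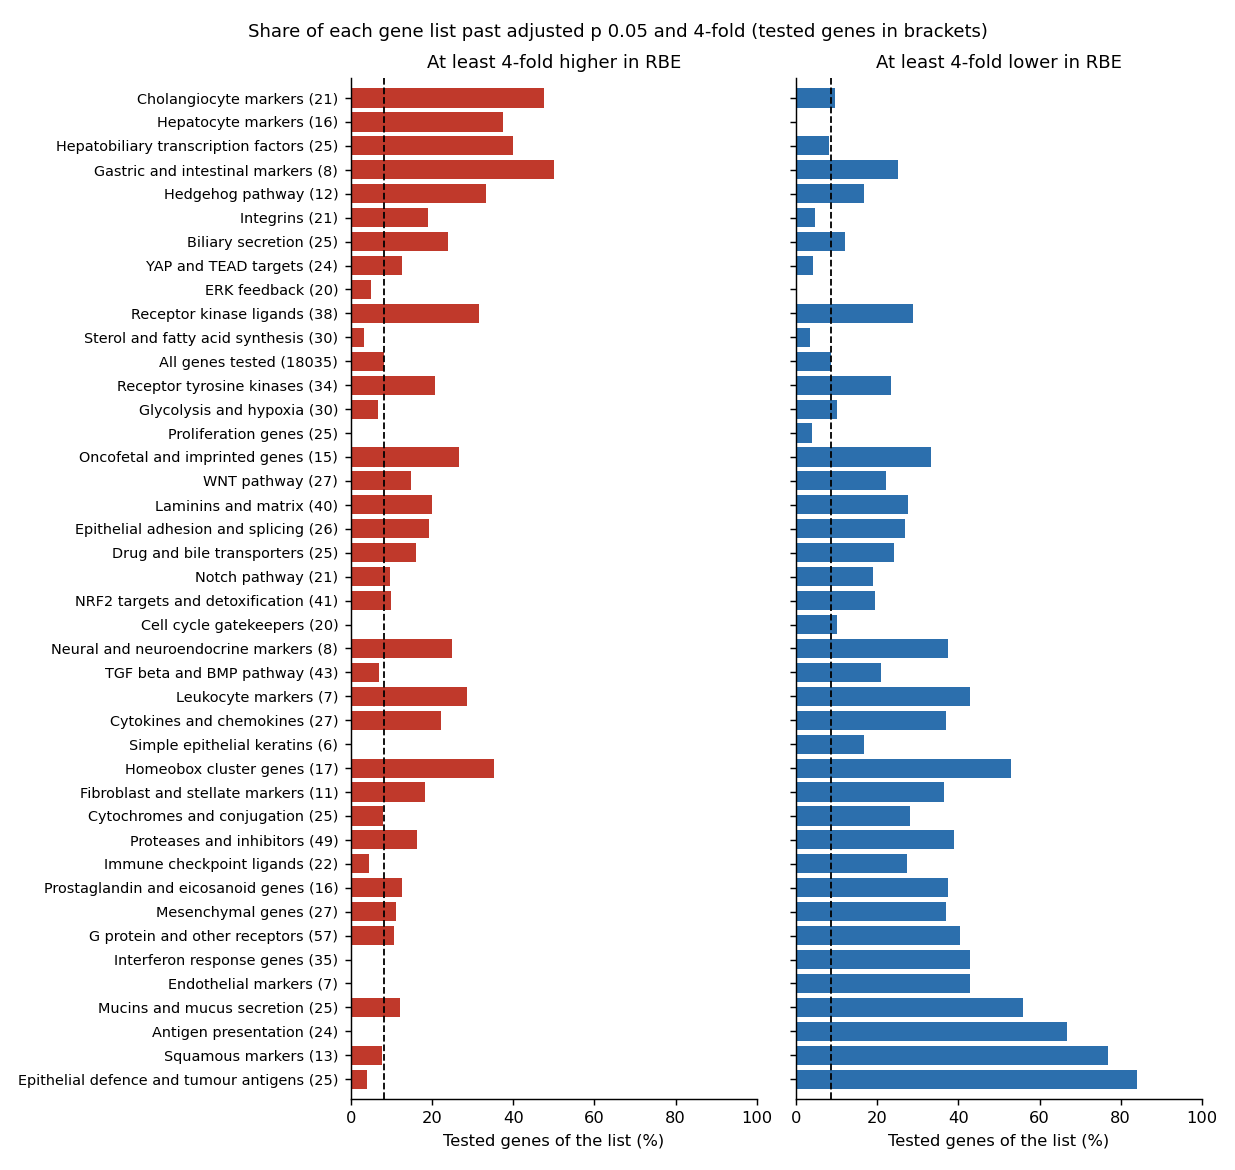
Share of the tested genes of each list that were at least 4-fold higher in RBE (left) or at least 4-fold lower in RBE (right) at an adjusted p below 0.05, with the number of tested genes in brackets; the dashed lines mark the shares over all genes tested, 8.02% and 8.71%. Lists with at least 5 tested genes are ordered by the difference of both shares, from cholangiocyte markers at the top to epithelial defence and tumour antigens at the bottom.

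Both lines carried the general markers of bile duct epithelium at high levels. KRT7, a keratin of duct epithelia, had 1301, 1054 and 1376 CPM in the RBE libraries and 5632, 3663 and 3167 CPM in the HCCC9810 libraries (log2 fold change -1.74 ± 0.19, adjusted p = 1.06e-06). KRT19, its companion in bile ducts, had 709.5, 616 and 786 CPM in the RBE libraries and 4096, 3206 and 3193 CPM in the HCCC9810 libraries (log2 fold change -2.31 ± 0.15, adjusted p = 2.44e-09). Both keratins were present in all 6 libraries, and those of HCCC9810 lay above those of RBE without overlap.

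SOX9, a factor that marks bile duct cells and their precursors, had 118, 105 and 124 CPM in the RBE libraries and 93.4, 105 and 105 CPM in the HCCC9810 libraries, and its difference did not pass the test (log2 fold change 0.19 ± 0.11, adjusted p = 0.141, with adjusted p = 0.0271 without RBE library 2). EPCAM, an epithelial adhesion molecule of ducts, averaged 47.6 ± 5.81 CPM in RBE and 123 ± 16.4 CPM in HCCC9810 and was lower in RBE (log2 fold change -1.38 ± 0.12, adjusted p = 7.63e-08). On the scale of the deposited RPKM, which corrects for gene length, KRT8, a keratin of all simple epithelia, ranked above KRT7 and KRT19 in RBE at 438 ± 19.995 RPKM, with KRT7 at 315 ± 40.6 RPKM and KRT19 at 312 ± 35.2 RPKM. In HCCC9810 the order by means was KRT19 at 1442 ± 143 RPKM, KRT7 at 972 ± 257 RPKM and KRT8 at 618 ± 60.3 RPKM. KRT7 and KRT19 stood within their spread of each other in RBE, and KRT8 was first of the 3 in RBE and last in HCCC9810.

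Markers of hepatocytes, leukocytes and endothelium were mostly low. Squamous markers summed to 65.6 to 72.8 CPM in RBE and 399 to 547 CPM in HCCC9810. Neural and neuroendocrine markers summed to 99.0 to 108 CPM in RBE and 324 to 335 CPM in HCCC9810. Of these 18 neural markers 8 were tested, with 2 higher in RBE, both at least 4-fold, and 4 lower, 3 of them at least 4-fold. Of 24 hepatocyte markers 16 could be tested and 12 exceeded 1 CPM in RBE and 4 in HCCC9810. ALB, the albumin gene, had 1.65, 14.4 and 2.17 CPM in the RBE libraries and 1.55, 4.19 and 1.52 CPM in the HCCC9810 libraries, and its difference did not pass the test (log2 fold change 1.26 ± 0.75, adjusted p = 0.159, with adjusted p = 0.042 without RBE library 1). AFP had no count in RBE. Summed levels of 14 leukocyte markers were 12.4 to 16.6 CPM in RBE and 28.6 to 39.3 CPM in HCCC9810, with CD3D at 0 in both lines. Of these 14 markers 7 were tested, with 2 higher in RBE and 3 lower, each by at least 4-fold. Summed levels of 12 endothelial markers were 58.0 to 71.1 CPM in RBE and 106 to 128 CPM in HCCC9810. The largest terms were EGFL7 (42.2 ± 5.31 CPM in RBE and 76.3 ± 10.99 CPM in HCCC9810) and, in RBE, ESAM (16.6 ± 1.57 CPM in RBE and 5.82 ± 0.688 CPM in HCCC9810, higher in RBE by 1.51 ± 0.14 on the log2 scale) and, in HCCC9810, PECAM1 (3.93 ± 0.912 CPM in RBE and 30.2 ± 2.48 CPM in HCCC9810). Of the 12 endothelial markers 7 were tested, with 1 higher in RBE and 4 lower. At least 4-fold lower were 3 of them, 42.9% of those tested against 8.71% over all genes tested. KDR, ERG and EMCN were among those without enough counts to be tested. In bulk libraries fewer cells that express a gene and less RNA per cell cannot be told apart.

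Genes of the cholangiocyte list differed in both directions, more often higher in RBE. Of its 22 members 21 were tested, 12 were higher in RBE and 6 lower, with 10 at least 4-fold higher and 2 at least 4-fold lower and a median log2 fold change of 1.98. PKHD1 (chr6:51615300-52087625), which encodes the ciliary membrane protein fibrocystin, had 68.1, 78.3 and 53.7 CPM in the RBE libraries and 0.0672, 0.159 and 0.179 CPM in the HCCC9810 libraries (log2 fold change 8.82 ± 0.32, adjusted p = 4.43e-12). The groups did not overlap, and HCCC9810 held only traces of this transcript.

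CD24, a surface glycoprotein of biliary and progenitor cells, averaged 346 ± 23.5 CPM in RBE and 6.10 ± 0.885 CPM in HCCC9810 (log2 fold change 5.83 ± 0.15, adjusted p = 2.33e-13). Also higher in RBE were CLDN10, a claudin of ion-transporting epithelia (6.85 ± 0.28), DCDC2, a protein of the cholangiocyte cilium (3.83 ± 0.28), and AQP1, a water channel (2.89 ± 0.16). The members lower in RBE were KRT7, KRT19, EPCAM, CLDN4, ANXA4 and CFTR, and CFTR, the chloride channel of duct cells, averaged 0.244 ± 0.107 CPM in RBE and 7.55 ± 2.43 CPM in HCCC9810 (log2 fold change -5.02 ± 0.42, adjusted p = 5.97e-08).

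The factors that direct hepatobiliary development showed the same division. Of 27 listed factors 25 were tested, of which 14 were higher in RBE and 9 lower, 10 of them at least 4-fold higher and 2 at least 4-fold lower, with a median log2 fold change of 1.05. HNF4A (chr20:44355700-44434596), a nuclear receptor of liver and gut epithelium, had 21.3, 19.6 and 20.8 CPM in the RBE libraries and 0.336, 0.106 and 0.268 CPM in the HCCC9810 libraries (log2 fold change 6.44 ± 0.30, adjusted p = 5.78e-11).

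Every RBE library stood far above the traces of HNF4A in HCCC9810. PROX1, a homeobox factor of the early liver (3.25 ± 0.34), HHEX, which acts in the budding of liver and bile ducts (3.01 ± 0.14), and SOX4, a factor of biliary development (2.11 ± 0.14), were higher in RBE as well. The factors lower in RBE were led by GATA6, which acts in endoderm and in gastric and biliary epithelium, with 3.69, 3.61 and 3.79 CPM in the RBE libraries and 25.5, 24.1 and 26.4 CPM in the HCCC9810 libraries (log2 fold change -2.77 ± 0.16, adjusted p = 8.98e-10). KLF5, a factor of proliferating gut epithelium, averaged 20.5 ± 0.910 CPM in RBE and 119 ± 10.3 CPM in HCCC9810 (log2 fold change -2.54 ± 0.10, adjusted p = 1.70e-11). ELF3, an epithelial ETS factor, had 168 ± 12.8 CPM in RBE and 182 ± 12.2 CPM in HCCC9810, and its difference did not pass the test.

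**Figure D2:**
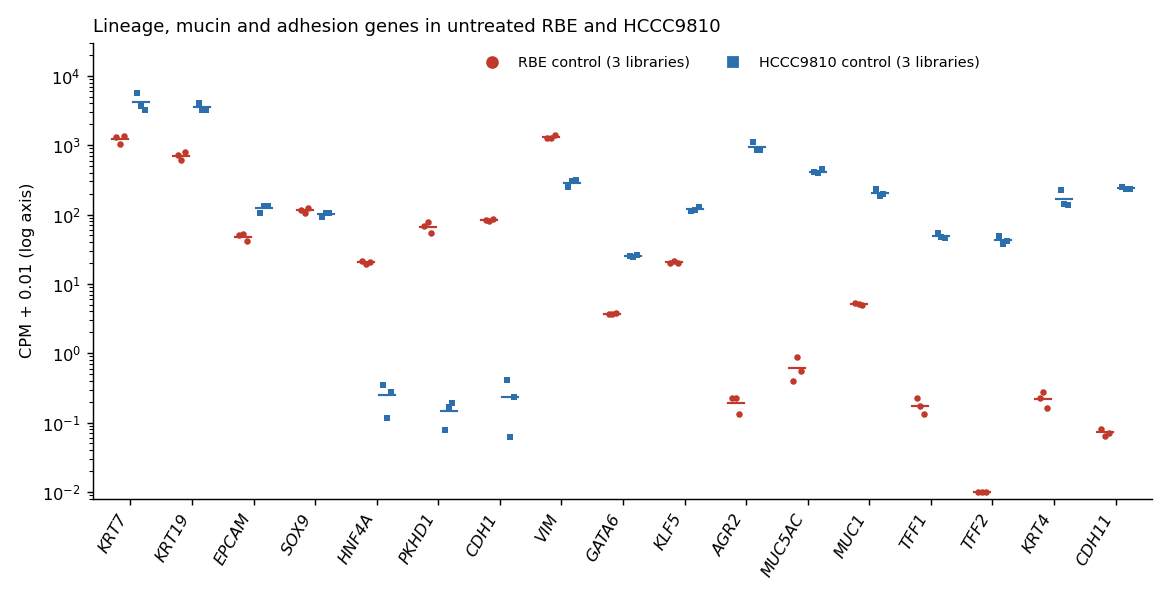
CPM of 17 named genes in each library on a log axis, with 0.01 added so that a library with no count can be drawn; points are libraries, RBE (circles) left of HCCC9810 (squares), and bars are means. KRT7, KRT19, EPCAM and SOX9 are present in all 6 libraries, HNF4A, PKHD1 and CDH1 stand out in RBE, and AGR2, MUC5AC, MUC1, TFF1, TFF2, KRT4 and CDH11 stand out in HCCC9810.

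Hepatocyte genes that passed the test were all higher in RBE, 9 of the 16 tested, with a median log2 fold change of 1.51. Without RBE library 2 the apolipoprotein gene APOA1, named after its values were seen, was called lower (log2 -1.40, against -0.44 with all libraries). APOH, an apolipoprotein of plasma, averaged 9.39 ± 1.86 CPM in RBE and 0.273 ± 0.0963 CPM in HCCC9810 (log2 fold change 5.09 ± 0.28, adjusted p = 4.96e-10). FGB, the fibrinogen beta chain, had 6.84, 12.8 and 5.38 CPM in the RBE libraries and 0.470, 0.955 and 0.358 CPM in the HCCC9810 libraries (log2 fold change 3.79 ± 0.51, adjusted p = 2.64e-05, with log2 3.43 without RBE library 2). FGG, the fibrinogen gamma chain, had 4.84, 9.17 and 3.70 CPM in the RBE libraries and 0.202, 0.796 and 0.671 CPM in the HCCC9810 libraries (log2 fold change 3.30 ± 0.41, adjusted p = 6.06e-06, with log2 2.93 without RBE library 2). RBE library 2 was the highest of the RBE libraries for ALB, APOH, FGB and FGG, and without it the log2 fold change of ALB was -0.27. These plasma protein genes were low in absolute counts in both lines. SERPINA1, the gene of alpha-1-antitrypsin, averaged 133 ± 16.2 CPM in RBE and 87.6 ± 3.88 CPM in HCCC9810 and differed by less than 2-fold (log2 fold change 0.60 ± 0.12, adjusted p = 0.000372).

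Mucus genes were mostly lower in RBE. Of 30 mucins and mucus-processing genes 25 were tested, of which 6 were higher in RBE and 16 lower, 3 at least 4-fold higher and 14 at least 4-fold lower, with a median log2 fold change of -2.24. AGR2 (chr7:16791811-16833433), a disulfide isomerase that folds mucins in the endoplasmic reticulum, had 0.215, 0.216 and 0.122 CPM in the RBE libraries and 1121, 845 and 860.3 CPM in the HCCC9810 libraries (log2 fold change -12.33 ± 0.32, adjusted p = 2.33e-13). MUC5AC (chr11:1157953-1201138), the gel-forming mucin of gastric surface cells, had 0.394, 0.863 and 0.550 CPM in the RBE libraries and 404, 393 and 449 CPM in the HCCC9810 libraries (log2 fold change -9.49 ± 0.25, adjusted p = 2.33e-13). In both cases every HCCC9810 library stood far above every RBE library, and the groups did not overlap.

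MUC1, a membrane mucin, averaged 5.12 ± 0.233 CPM in RBE and 206 ± 27.2 CPM in HCCC9810 (log2 fold change -5.33 ± 0.18, adjusted p = 2.26e-12). The trefoil peptides accompany mucins in gastric mucus, and TFF1 averaged 0.166 ± 0.0466 CPM in RBE and 48.9 ± 4.11 CPM in HCCC9810 (log2 fold change -8.17 ± 0.28, adjusted p = 2.88e-12). TFF2 had no count in RBE and averaged 42.7 ± 6.12 CPM in HCCC9810, so that RBE was at least 1110-fold lower against a floor of 3 counts over the group. Folds against a line with at most 3 counts were taken from counts summed over the libraries of each line and scaled to the summed TMM library sizes, so they differ from ratios of the mean CPM. TFF1 and TFF2 are neighbours on chromosome 21. ST6GALNAC1, the sialyltransferase that makes the sialyl-Tn sugar of mucins, had 2 counts over the RBE libraries and averaged 0.0282 ± 0.0270 CPM in RBE and 55.8 ± 4.79 CPM in HCCC9810, a level higher in HCCC9810 by 2220-fold, with a counting interval of 613 to 18300.

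RBE was higher for a smaller set of the same list. GCNT3, a core-branching enzyme of mucin sugars, averaged 59.97 ± 3.21 CPM in RBE and 1.21 ± 0.389 CPM in HCCC9810 (log2 fold change 5.61 ± 0.19, adjusted p = 2.23e-12). B3GNT3, another glycosyltransferase, differed by 6.24 ± 0.35, and FCGBP, a mucin-associated protein, by 3.54 ± 0.32. The gastric peptide GKN2 had 3 counts over the RBE libraries and averaged 0.0341 ± 0.0360 CPM in RBE and 27.3 ± 10.96 CPM in HCCC9810, whereas VIL1, which encodes villin of the enterocyte brush border, had 11.9, 12.7 and 11.9 CPM in RBE and 0.0672, 0 and 0.268 CPM in HCCC9810 and was higher in RBE (log2 fold change 6.55 ± 0.37, adjusted p = 5.15e-10). The enterocyte genes CDH17 (6.28 ± 0.33) and ANPEP (4.91 ± 0.28) were higher in RBE too. GKN2, VIL1, CDH17 and ANPEP are of a separate list of 20 gastric and intestinal markers, of which 8 were tested and 12 were not. In that list 4 genes were higher in RBE, all at least 4-fold, and 3 were lower, 2 of them at least 4-fold. The intestinal master factor CDX2 had no count in RBE and was not tested.

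Epithelial defence genes and tumour antigens were lower in RBE with few exceptions. Of 30 members 25 were tested, 23 were lower in RBE and 1 was higher, with 21 at least 4-fold lower and a median log2 fold change of -5.80. C3, the central complement component, had 3.62, 10.4 and 5.13 CPM in the RBE libraries and 1539, 1257 and 1424 CPM in the HCCC9810 libraries (log2 fold change -7.83 ± 0.38, adjusted p = 2.29e-09). LCN2, an iron-sequestering defence protein, averaged 31.1 ± 2.83 CPM in RBE and 603 ± 96.3 CPM in HCCC9810 (log2 fold change -4.28 ± 0.20, adjusted p = 1.05e-10).

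The carcinoembryonic family and the antiproteases followed the same direction. CEACAM6 averaged 0.478 ± 0.0566 CPM in RBE and 226 ± 21.3 CPM in HCCC9810 (log2 fold change -8.90 ± 0.23, adjusted p = 2.33e-13). CEACAM5, the gene of carcinoembryonic antigen, had 1 count over the RBE libraries and averaged 0.0119 ± 0.0207 CPM in RBE and 8.94 ± 1.54 CPM in HCCC9810. PI3, the elastase inhibitor elafin, had 3 counts in RBE and averaged 0.0539 ± 0.0934 CPM in RBE and 23.4 ± 6.30 CPM in HCCC9810, and BPIFB1, a secreted protein of airway and gastric glands, had 3 counts in RBE and averaged 0.0323 ± 0.0307 CPM in RBE and 75.9 ± 14.1 CPM in HCCC9810. The exception was TM4SF4, a tetraspan membrane protein of intestine and liver, with 56.8, 54.2 and 57.0 CPM in the RBE libraries and 0.202, 0.0530 and 0.0447 CPM in the HCCC9810 libraries (log2 fold change 9.21 ± 0.27, adjusted p = 7.12e-13).

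Fluid and bicarbonate transport genes were divided between the lines. Of 30 genes of biliary secretion 25 were tested, of which 9 were higher in RBE and 12 lower, with a median log2 fold change of -0.21, and 6 were at least 4-fold higher and 3 at least 4-fold lower. The carbonic anhydrases CA2 (6.34 ± 0.34) and CA12 (5.82 ± 0.29) were higher in RBE together with PKHD1 and AQP1, and CA12 averaged 27.4 ± 2.40 CPM in RBE and 0.465 ± 0.395 CPM in HCCC9810. AQP3, a channel for water and glycerol, was lower in RBE, with 2.69, 3.29 and 2.60 CPM in the RBE libraries and 599, 559 and 621 CPM in the HCCC9810 libraries (log2 fold change -7.71 ± 0.21, adjusted p = 3.29e-13). P2RY2, the nucleotide receptor that drives chloride secretion, was lower as well (-4.04 ± 0.13).

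Adhesion genes, epithelial and mesenchymal, were each divided between the lines. CDH1 (chr16:68737225-68835548), the gene of E-cadherin, had 83.5, 79.7 and 86.7 CPM in the RBE libraries and 0.403, 0.0530 and 0.224 CPM in the HCCC9810 libraries (log2 fold change 8.56 ± 0.26, adjusted p = 9.06e-13). The desmosomal cadherin DSC2 had 3 counts over the HCCC9810 libraries and averaged 32.3 ± 3.80 CPM in RBE and 0.0475 ± 0.0450 CPM in HCCC9810, and DSC3 averaged 34.8 ± 4.49 CPM in RBE and 0.0680 ± 0.0821 CPM in HCCC9810 (log2 fold change 8.82 ± 0.40, adjusted p = 4.67e-11). The HCCC9810 libraries held CDH1 only at traces.

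Of 30 genes of epithelial adhesion and splicing 26 were tested, of which 7 were higher in RBE and 17 lower, with a median log2 fold change of -0.71. ST14, the membrane protease matriptase, averaged 22.3 ± 1.12 CPM in RBE and 404 ± 38.9 CPM in HCCC9810 (log2 fold change -4.18 ± 0.18, adjusted p = 2.59e-11). ESRP2, an epithelial splicing regulator, differed by -4.24 ± 0.16, and its partner ESRP1 was not tested in either line for lack of counts. SPINT1, an inhibitor of matriptase (-3.55 ± 0.16), and PKP3, a desmosomal plakophilin (-3.15 ± 0.13), were also lower in RBE. TJP1, the tight junction scaffold, was higher in RBE by less than 2-fold (0.68 ± 0.13).

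Mesenchymal genes were divided too. Of 32 listed, 27 were tested, with 6 higher in RBE and 16 lower, 3 at least 4-fold higher and 10 at least 4-fold lower, and a median of -1.19. VIM (chr10:17228259-17237593), the intermediate filament vimentin, had 1249.9, 1263 and 1420.0 CPM in the RBE libraries and 246, 304 and 316 CPM in the HCCC9810 libraries (log2 fold change 2.18 ± 0.13, adjusted p = 9.81e-10). TNC (chr9:115019578-115118257), the matrix glycoprotein tenascin C, had 719, 753 and 724 CPM in the RBE libraries and 2.62, 2.65 and 1.48 CPM in the HCCC9810 libraries (log2 fold change 8.37 ± 0.19, adjusted p = 7.80e-14). Both were higher in every RBE library than in any of HCCC9810.

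CDH11 (chr16:64943753-65126112), a cadherin of mesenchymal cells, went the other way and had 0.0717, 0.0539 and 0.0611 CPM in the RBE libraries and 249, 234 and 233 CPM in the HCCC9810 libraries (log2 fold change -11.76 ± 0.36, adjusted p = 2.01e-12). SNAI2, a repressor of CDH1, was lower in RBE (1.38 ± 0.323 CPM in RBE and 26.1 ± 3.30 CPM in HCCC9810, log2 fold change -4.26 ± 0.19, adjusted p = 4.04e-11). ZEB1, another such repressor, was higher (31.4 ± 8.37 CPM in RBE and 13.6 ± 5.10 CPM in HCCC9810, log2 fold change 1.18 ± 0.38, adjusted p = 0.0159). The fibrillin gene FBN1 (-4.97 ± 0.18), the cross-linking enzyme LOX (-4.01 ± 0.29), COL5A1 (-2.70 ± 0.15) and fibronectin, FN1 (-1.44 ± 0.15), were lower in RBE. Of 14 fibroblast and stellate markers 11 were tested, with 6 higher in RBE and 4 lower and a median of 0.68. At least 4-fold higher were 2 and at least 4-fold lower 4. Among them PDGFRA was higher in RBE. LUM, a matrix proteoglycan with 2 counts over the RBE libraries, averaged 0.0239 ± 0.0414 CPM in RBE and 34.5 ± 6.47 CPM in HCCC9810.

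Squamous markers were mostly lower in RBE. Of 20 squamous markers 13 were tested, of which 11 were lower in RBE and 1 higher, 10 of them at least 4-fold lower, with a median log2 fold change of -4.04. KRT4, a keratin of stratified mucosa, had 0.215, 0.270 and 0.153 CPM in the RBE libraries and 227, 143 and 137 CPM in the HCCC9810 libraries (log2 fold change -9.66 ± 0.30, adjusted p = 9.75e-13). Its partner KRT13 averaged 0.0904 ± 0.0181 CPM in RBE and 18.5 ± 4.58 CPM in HCCC9810 (log2 fold change -7.63 ± 0.35, adjusted p = 4.79e-11). KRT15 was present in both lines and differed by less than 2-fold (13.8 ± 0.942 CPM in RBE and 26.8 ± 1.10 CPM in HCCC9810, log2 fold change -0.95 ± 0.12, adjusted p = 5.24e-06). S100A2 averaged 17.2 ± 0.587 CPM in RBE and 214 ± 33.6 CPM in HCCC9810 (log2 fold change -3.64 ± 0.20, adjusted p = 8.95e-10). KRT5, a keratin of basal cells, was low in both lines and its difference did not pass the test. DSC3 was the member higher in RBE.

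Receptor tyrosine kinases differed by line in their kinds more than in their number. Of 46 listed receptors 34 were tested, of which 12 were higher in RBE and 17 lower, 7 at least 4-fold higher and 8 at least 4-fold lower, with a median log2 fold change of -0.17. MET, the receptor of hepatocyte growth factor, had 467, 493 and 424 CPM in the RBE libraries and 1015, 1065 and 1025 CPM in the HCCC9810 libraries (log2 fold change -1.17 ± 0.12, adjusted p = 5.64e-07). EGFR averaged 258 ± 19.1 CPM in RBE and 504 ± 16.2 CPM in HCCC9810 (log2 fold change -0.97 ± 0.11, adjusted p = 1.67e-06). Both receptors were lower in RBE by about 2-fold, and their ranges did not overlap. ERBB2 had 109, 92.1 and 114 CPM in the RBE libraries and 112, 87.0 and 88.6 CPM in the HCCC9810 libraries, with overlapping ranges and no call (log2 fold change 0.13 ± 0.13, adjusted p = 0.402).

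ERBB3, the partner of ERBB2 that lacks strong kinase activity, was higher in RBE (30.3 ± 1.78 CPM in RBE and 2.89 ± 1.24 CPM in HCCC9810, log2 fold change 3.35 ± 0.21, adjusted p = 1.67e-09). Receptors that anlotinib is known to inhibit include those of FGF and PDGF. FGFR4 (chr5:177086886-177098144), through which intestinal FGF19 restrains bile acid synthesis in liver, had 184, 168 and 196 CPM in the RBE libraries and 3.83, 3.395 and 3.13 CPM in the HCCC9810 libraries (log2 fold change 5.73 ± 0.15, adjusted p = 2.33e-13). PDGFRA (chr4:54229097-54298247) had 36.4, 45.1 and 32.9 CPM in the RBE libraries and 0.202, 0.0530 and 0 CPM in the HCCC9810 libraries (log2 fold change 8.95 ± 0.40, adjusted p = 4.83e-11).

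FGFR1 (1.30 ± 0.15) and FGFR3 (1.58 ± 0.15) were also higher in RBE, whereas FGFR2, the receptor rearranged in some small duct cholangiocarcinomas, was lower (1.92 ± 0.440 CPM in RBE and 13.9 ± 0.330 CPM in HCCC9810, log2 fold change -2.89 ± 0.20, adjusted p = 5.40e-09). By deposited RPKM the FGF receptors ranked FGFR4, FGFR1, FGFR3 and FGFR2 in RBE, at 39.2 ± 2.69 RPKM, 21.7 ± 1.58 RPKM, 14.2 ± 1.17 RPKM and 0.263 ± 0.0617 RPKM. In HCCC9810 they ranked FGFR1, FGFR3, FGFR2 and FGFR4, at 8.20 ± 1.30 RPKM, 4.43 ± 0.0740 RPKM, 1.78 ± 0.120 RPKM and 0.689 ± 0.0430 RPKM. KDR, FLT1 and FLT4, the VEGF receptors, and KIT did not have enough counts to be tested in these lines.

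NTRK3, the receptor of neurotrophin 3, had 3 counts over the HCCC9810 libraries and averaged 27.1 ± 2.45 CPM in RBE and 0.0475 ± 0.0450 CPM in HCCC9810, a level higher in RBE by 498-fold, with a counting interval of 170 to 2410. The opposite extreme was EPHB6, an Eph receptor without kinase activity, with 1.22, 1.40 and 0.917 CPM in the RBE libraries and 632, 468 and 468 CPM in the HCCC9810 libraries (log2 fold change -8.82 ± 0.21, adjusted p = 1.08e-13). MST1R, the receptor of macrophage stimulating protein (-2.06 ± 0.13), and ROR1, a receptor of WNT5A (-2.25 ± 0.14), were lower in RBE. EPHA2, a receptor that is also an ERK target, was higher (275 ± 26.9 CPM in RBE and 117 ± 19.9 CPM in HCCC9810, log2 fold change 1.23 ± 0.15, adjusted p = 2.77e-06), as was AXL, the receptor of GAS6 (0.93 ± 0.16).

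**Figure D3:**
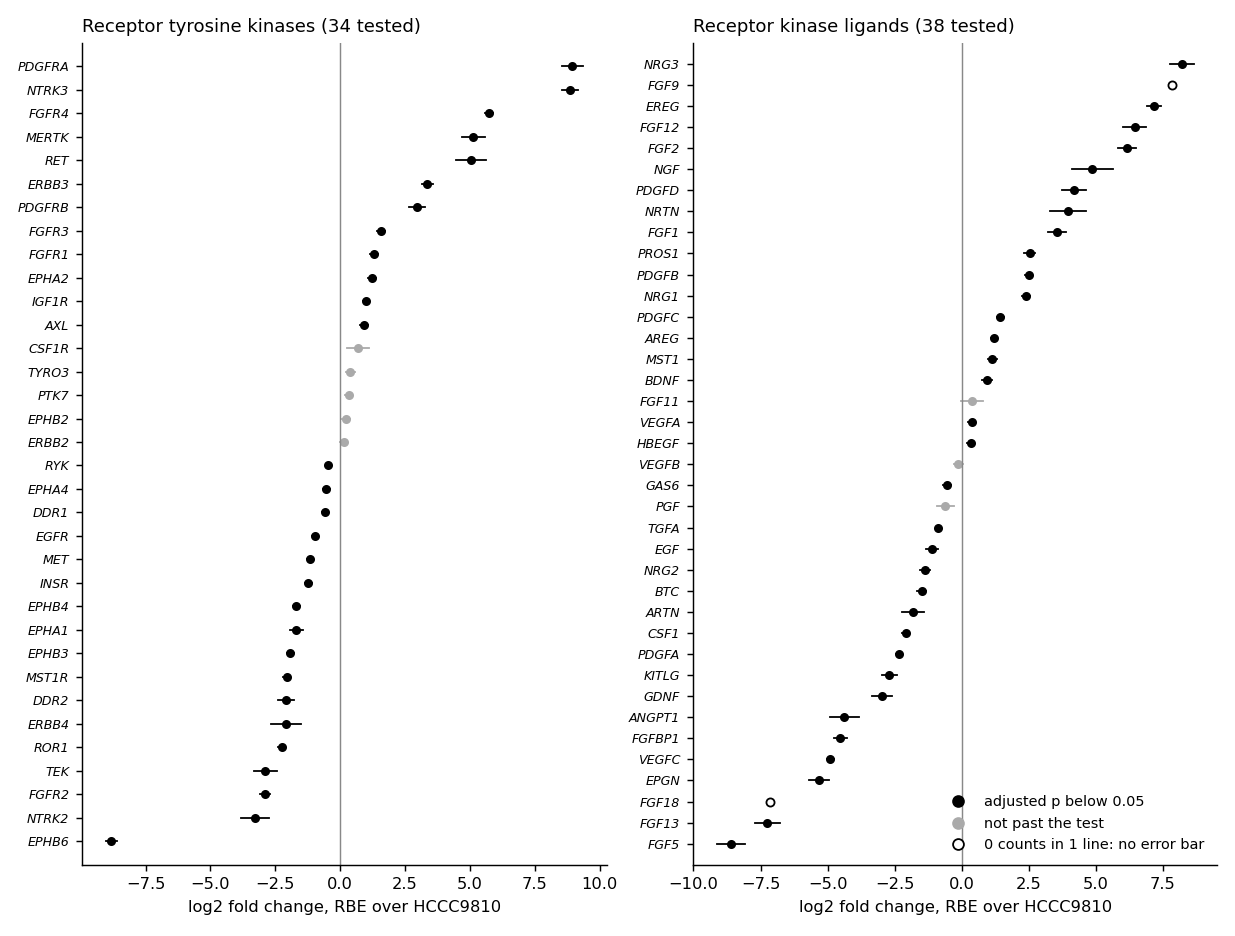
Log2 fold change of RBE over HCCC9810 controls for the 34 tested receptor tyrosine kinases (left) and the 38 tested ligand and ligand-binding genes (right). Points are model estimates with bars of 1 approximate SE, which can be too short where 1 line had few counts. They are black where adjusted p was below 0.05, and open circles without a bar mark genes with no count in 1 line. PDGFRA, NTRK3 and FGFR4 lie at the RBE end and EPHB6 at the HCCC9810 end of the receptors, and EREG lies near the RBE end and VEGFC and FGF5 near the HCCC9810 end of the ligands.

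Ligands of these receptors were nearly balanced in number. Of 49 listed genes 38 were tested, 18 were higher in RBE and 17 lower, 12 at least 4-fold higher and 11 at least 4-fold lower, with a median log2 fold change of 0.11. EREG (chr4:74365143-74388751), the EGFR ligand epiregulin, had 121, 123 and 109 CPM in the RBE libraries and 0.941, 1.22 and 0.358 CPM in the HCCC9810 libraries (log2 fold change 7.17 ± 0.25, adjusted p = 4.17e-12), while TGFA, another EGFR ligand, was lower in RBE (132 ± 6.92 CPM in RBE and 241 ± 10.9 CPM in HCCC9810, log2 fold change -0.87 ± 0.09, adjusted p = 5.92e-07). NRG3 had 1 count over the HCCC9810 libraries and averaged 6.82 ± 0.448 CPM in RBE and 0.0177 ± 0.0306 CPM in HCCC9810.

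FGF2 (6.17 ± 0.35) and FGF1 (3.55 ± 0.32) were higher in RBE together with the receptors FGFR4 and FGFR1. FGF5 went the other way, with 1 count over the RBE libraries and 7.02 ± 1.90 CPM in HCCC9810. VEGFC, the lymphatic growth factor, averaged 2.16 ± 0.0645 CPM in RBE and 64.6 ± 3.73 CPM in HCCC9810 (log2 fold change -4.89 ± 0.14, adjusted p = 6.98e-13). KITLG, the ligand of KIT, averaged 20.1 ± 4.20 CPM in RBE and 129 ± 33.0 CPM in HCCC9810 (log2 fold change -2.70 ± 0.28, adjusted p = 2.83e-06). Both were lower in RBE. VEGFA, the principal angiogenic ligand, was higher in RBE by less than 1.5-fold (130.5 ± 7.93 CPM in RBE and 101 ± 7.57 CPM in HCCC9810, log2 fold change 0.37 ± 0.14, adjusted p = 0.0289), and this direction was the opposite in the anlotinib libraries (log2 -0.34). Its adjusted p was 0.0527 without RBE library 1, 0.0551 without RBE library 3, 0.0509 without HCCC9810 library 8 and 0.0747 without HCCC9810 library 9.

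Genes that report ERK activity by feedback were tested in full, 11 of 20 higher in RBE and 4 lower, with a median log2 fold change of 0.50. At least 4-fold higher was 1 of them (5%) and at least 4-fold lower 0, against 8.02% and 8.71% over all genes tested. SPRY2, an inhibitor of receptor signalling induced by it, averaged 73.0 ± 2.28 CPM in RBE and 6.54 ± 0.936 CPM in HCCC9810 (log2 fold change 3.48 ± 0.14, adjusted p = 8.87e-12). DUSP4, a phosphatase of ERK, averaged 222 ± 16.1 CPM in RBE and 72.7 ± 8.65 CPM in HCCC9810 (log2 fold change 1.61 ± 0.11, adjusted p = 3.40e-09). ETV4, an ETS factor, differed by 1.49 ± 0.14. CCND1, the gene of cyclin D1, was lower in RBE (422 ± 45.0 CPM in RBE and 769 ± 115 CPM in HCCC9810, log2 fold change -0.87 ± 0.12, adjusted p = 1.48e-05). ERRFI1 (MIG6), a feedback inhibitor of EGFR that is not of this list, was among the largest differences of the whole comparison. It had 290.2, 296 and 293 CPM in the RBE libraries and 0, 0.955 and 0.134 CPM in the HCCC9810 libraries (log2 fold change 9.59 ± 0.43, adjusted p = 9.14e-10).

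Secreted cytokines were lower in RBE more often than higher. Of 43 listed 27 were tested, of which 8 were higher in RBE and 16 lower, 6 at least 4-fold higher and 10 at least 4-fold lower, with a median log2 fold change of -1.32. CX3CL1, the membrane-bound chemokine fractalkine, had 46.3, 43.5 and 51.3 CPM in the RBE libraries and 0.134, 0.212 and 0.0447 CPM in the HCCC9810 libraries (log2 fold change 8.49 ± 0.29, adjusted p = 2.63e-12). TNFSF15, a TNF ligand, averaged 52.3 ± 2.85 CPM in RBE and 4.82 ± 0.337 CPM in HCCC9810 (log2 fold change 3.44 ± 0.13, adjusted p = 5.81e-12). IL1B, the inflammatory cytokine, averaged 0.674 ± 0.166 CPM in RBE and 54.4 ± 8.56 CPM in HCCC9810 (log2 fold change -6.37 ± 0.21, adjusted p = 1.53e-12). GDF15, a stress-induced cytokine, averaged 37.3 ± 7.48 CPM in RBE and 436 ± 107 CPM in HCCC9810 (log2 fold change -3.55 ± 0.20, adjusted p = 8.66e-10).

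LIF, a cytokine of the IL-6 family, had 53.0 ± 3.90 CPM in RBE and 52.0 ± 14.3 CPM in HCCC9810, and no difference was called (log2 fold change 0.03 ± 0.15, adjusted p = 0.867), though its adjusted p was 0.0334 without HCCC9810 library 7. The CXCL chemokines next to each other on chromosome 4 are nearly identical, and their counts are uncertain. IL32 was higher in RBE (2.66 ± 0.25) and the chemokine CCL28, made by mucosal epithelium, was lower (-5.10 ± 0.37).

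Of 69 G protein-coupled, cytokine, death and nuclear receptors 57 were tested, with 12 higher in RBE and 39 lower, 6 at least 4-fold higher and 23 at least 4-fold lower, and a median log2 fold change of -1.27. OXTR, the oxytocin receptor, had 59.5, 59.7 and 52.2 CPM in the RBE libraries and 0.0672, 0.212 and 0.626 CPM in the HCCC9810 libraries (log2 fold change 7.39 ± 0.28, adjusted p = 7.59e-12). IL6R averaged 33.1 ± 1.84 CPM in RBE and 6.49 ± 1.14 CPM in HCCC9810 (log2 fold change 2.36 ± 0.14, adjusted p = 7.00e-10). GPRC5A, an orphan receptor induced by retinoic acid, averaged 76.9 ± 8.48 CPM in RBE and 1253 ± 379 CPM in HCCC9810 (log2 fold change -4.03 ± 0.19, adjusted p = 1.05e-10). S1PR3, a receptor of sphingosine 1-phosphate, averaged 3.499 ± 0.146 CPM in RBE and 91.0 ± 6.75 CPM in HCCC9810 (log2 fold change -4.70 ± 0.15, adjusted p = 1.46e-12). The TNF receptors TNFRSF1B (-6.37 ± 0.17) and TNFRSF9 (-5.51 ± 0.32) were lower in RBE.

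Eicosanoid genes differed in synthesis and breakdown. PTGES, the prostaglandin E synthase, averaged 2.87 ± 0.0733 CPM in RBE and 342 ± 42.2 CPM in HCCC9810 (log2 fold change -6.90 ± 0.14, adjusted p = 4.33e-14). ALOX5, the 5-lipoxygenase, differed by -5.44 ± 0.23. HPGD, which inactivates prostaglandins, was higher in RBE (5.25 ± 1.66 CPM in RBE and 0.190 ± 0.180 CPM in HCCC9810, log2 fold change 4.58 ± 0.48, adjusted p = 8.25e-07). Over the list of 21 genes 16 were tested, 6 higher in RBE and 9 lower, with a median of -0.75, and the inducible cyclooxygenase gene PTGS2 had too few counts in both lines.

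WNT pathway genes differed in both directions. Of 38 genes 27 were tested, 6 higher in RBE and 13 lower, with a median log2 fold change of -0.32, 4 of them at least 4-fold higher and 6 at least 4-fold lower. WNT5A averaged 5.66 ± 0.829 CPM in RBE and 0.362 ± 0.0457 CPM in HCCC9810 (log2 fold change 3.96 ± 0.23, adjusted p = 6.28e-10). WNT5B averaged 15.3 ± 2.51 CPM in RBE and 1.04 ± 0.202 CPM in HCCC9810 (log2 fold change 3.90 ± 0.24, adjusted p = 1.71e-09). WNT11 had the opposite direction, with 1 count over the RBE libraries, and averaged 0.0119 ± 0.0207 CPM in RBE and 23.5 ± 5.51 CPM in HCCC9810.

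WNT4 (-5.92 ± 0.29) was lower in RBE. AXIN2, a direct target of beta-catenin, averaged 2.82 ± 0.396 CPM in RBE and 39.2 ± 3.06 CPM in HCCC9810 (log2 fold change -3.78 ± 0.24, adjusted p = 1.86e-09), and the secreted WNT inhibitor DKK1 averaged 4.84 ± 0.387 CPM in RBE and 120.3 ± 9.75 CPM in HCCC9810 (log2 fold change -4.64 ± 0.15, adjusted p = 1.51e-12). WNT7B, another ligand, was lower in RBE by less than 2-fold (112 ± 19.1 CPM in RBE and 167 ± 36.7 CPM in HCCC9810, log2 fold change -0.57 ± 0.16, adjusted p = 0.00613), and the adjusted p was 0.0799 without RBE library 2 and 0.104 without HCCC9810 library 7.

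The Hedgehog list was small, with 12 of 14 genes tested, 5 higher in RBE and 4 lower, and a median of 0.53. SMO, the signal transducer of the pathway, had 39.3, 37.4 and 41.0 CPM in the RBE libraries and 1.07, 0.849 and 1.03 CPM in the HCCC9810 libraries (log2 fold change 5.32 ± 0.24, adjusted p = 5.79e-11). GLI3, a transcription factor at its end, averaged 19.5 ± 1.51 CPM in RBE and 0.284 ± 0.109 CPM in HCCC9810 (log2 fold change 6.07 ± 0.22, adjusted p = 4.36e-12). The ligand SHH was higher in RBE (16.7 ± 2.31 CPM in RBE and 2.09 ± 0.296 CPM in HCCC9810, log2 fold change 2.99 ± 0.18, adjusted p = 1.54e-09) and the ligand IHH lower (0.227 ± 0.0727 CPM in RBE and 8.59 ± 0.710 CPM in HCCC9810, log2 fold change -5.14 ± 0.28, adjusted p = 4.47e-10). PTCH1, the receptor and a target of the pathway, was lower in RBE by less than 2-fold (12.3 ± 0.783 CPM in RBE and 20.7 ± 2.81 CPM in HCCC9810, log2 fold change -0.75 ± 0.13, adjusted p = 0.000107).

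Notch genes had 21 of 23 tested, 6 higher in RBE and 11 lower, with a median of -0.51. NOTCH2, the receptor required for duct formation, averaged 258 ± 7.30 CPM in RBE and 436 ± 21.0 CPM in HCCC9810 (log2 fold change -0.76 ± 0.11, adjusted p = 2.30e-05), and its ligand JAG1 averaged 198 ± 8.33 CPM in RBE and 351 ± 32.8 CPM in HCCC9810 (log2 fold change -0.83 ± 0.10, adjusted p = 4.16e-06). JAG2 was lower in RBE (-1.90 ± 0.14). HES2 (-5.20 ± 0.30) and HES4 (-2.94 ± 0.24), factors of the hairy and enhancer of split family, and DTX4, a Deltex ubiquitin ligase (-2.01 ± 0.13), were lower in RBE as well, and the target NRARP was higher (1.78 ± 0.17).

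In the TGF beta and BMP list 43 of 46 genes were tested, with 17 higher in RBE and 17 lower and a median of 0.09. PMEPA1, a feedback inhibitor induced by TGF beta, averaged 931 ± 89.7 CPM in RBE and 172 ± 37.7 CPM in HCCC9810 (log2 fold change 2.44 ± 0.14, adjusted p = 7.74e-10). SMAD7, another, differed by 2.03 ± 0.14. ID1, a target of BMP signalling, had 82.8, 74.1 and 91.6 CPM in the RBE libraries and 929, 726 and 765 CPM in the HCCC9810 libraries (log2 fold change -3.28 ± 0.19, adjusted p = 9.32e-10). ID3 followed (-3.88 ± 0.28), whereas ID2 was higher in RBE (1.97 ± 0.15).

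Targets of YAP and TEAD split 9 higher in RBE to 9 lower among 24 tested, with a median of 0.14. Among them IGFBP3, a binding protein of insulin-like growth factors, had 122, 121 and 134 CPM in the RBE libraries and 0.134, 0.212 and 0.268 CPM in the HCCC9810 libraries (log2 fold change 9.16 ± 0.21, adjusted p = 5.82e-14). CTGF averaged 77.5 ± 2.39 CPM in RBE and 5.93 ± 3.19 CPM in HCCC9810 (log2 fold change 3.74 ± 0.28, adjusted p = 1.32e-07). F3, the tissue factor that starts coagulation, had 2.08, 2.37 and 2.84 CPM in the RBE libraries and 745, 588 and 493 CPM in the HCCC9810 libraries (log2 fold change -7.96 ± 0.22, adjusted p = 4.87e-13).

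The plasminogen system was divided between activators. PLAU (chr10:73909177-73917497), the urokinase gene, had 191, 171 and 204 CPM in the RBE libraries and 0.336, 0.584 and 0.313 CPM in the HCCC9810 libraries (log2 fold change 8.83 ± 0.22, adjusted p = 1.80e-13). PLAT (chr8:42175233-42207724), the tissue-type activator, had 21.5, 21.3 and 22.7 CPM in the RBE libraries and 2863, 2700.0 and 3135 CPM in the HCCC9810 libraries (log2 fold change -7.05 ± 0.15, adjusted p = 5.34e-14). Each line thus held 1 of the activators at a high level, urokinase in RBE and the tissue type in HCCC9810.

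SERPINB2, an intracellular inhibitor of urokinase, had no count in RBE and averaged 82.2 ± 32.0 CPM in HCCC9810, so that RBE was at least 2060-fold lower by summed counts. Of 59 proteases and inhibitors 49 were tested, 14 higher in RBE and 32 lower, 8 at least 4-fold higher and 19 at least 4-fold lower, with a median log2 fold change of -0.98. KLK10, a kallikrein with 1 count in RBE, averaged 0.0180 ± 0.0311 CPM in RBE and 32.3 ± 1.05 CPM in HCCC9810. SPINK4, a protease inhibitor of goblet cells with 3 counts in RBE, averaged 0.0479 ± 0.0549 CPM in RBE and 59.6 ± 26.0 CPM in HCCC9810, and TIMP2, an inhibitor of matrix metalloproteases, averaged 422 ± 42.1 CPM in RBE and 1977 ± 79.1 CPM in HCCC9810 (log2 fold change -2.23 ± 0.13, adjusted p = 1.04e-09). PRSS1 is nearly identical to its neighbours, and its count is uncertain.

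Matrix genes were tested for 40 of 42 members, with 12 higher in RBE and 27 lower, 8 at least 4-fold higher and 11 at least 4-fold lower, and a median log2 fold change of -1.02. NID1, a linker of basement membranes, averaged 111 ± 7.97 CPM in RBE and 0.297 ± 0.181 CPM in HCCC9810 (log2 fold change 8.42 ± 0.25, adjusted p = 8.74e-13). VCAN, the proteoglycan versican, averaged 354 ± 77.4 CPM in RBE and 16.5 ± 4.21 CPM in HCCC9810 (log2 fold change 4.42 ± 0.28, adjusted p = 2.25e-08). COL7A1, the collagen of anchoring fibrils, averaged 79.0 ± 4.38 CPM in RBE and 2.31 ± 0.997 CPM in HCCC9810 (log2 fold change 5.11 ± 0.24, adjusted p = 1.32e-10). EFEMP1, a fibulin, had 3.51, 4.42 and 3.42 CPM in the RBE libraries and 958, 795 and 775 CPM in the HCCC9810 libraries (log2 fold change -7.81 ± 0.17, adjusted p = 5.51e-14). The chain genes COL4A5 (-3.32 ± 0.19) and COL4A6 (-5.61 ± 0.30), which lie head to head on the X chromosome, were both lower in RBE.

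Of 21 integrins tested 7 were higher in RBE and 9 lower, with a median of 0.04. ITGA3, a laminin-binding chain, averaged 1227 ± 150.1 CPM in RBE and 4174 ± 372 CPM in HCCC9810 (log2 fold change -1.77 ± 0.14, adjusted p = 2.06e-08). ITGB4 averaged 604 ± 42.0 CPM in RBE and 1022 ± 67.0 CPM in HCCC9810 (log2 fold change -0.76 ± 0.16, adjusted p = 0.000735). ITGB1, the common partner, averaged 2425 ± 502 CPM in RBE and 1342 ± 104 CPM in HCCC9810 (log2 fold change 0.85 ± 0.16, adjusted p = 0.000299).

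Genes of antigen presentation were lower in RBE throughout the list wherever a difference passed the test. Of 27 members 24 were tested, none was higher in RBE and 22 were lower, 16 of them at least 4-fold, with a median log2 fold change of -2.33; the share of all tested genes lower in RBE was 32.6%. The 22 were also called lower in the anlotinib libraries. HLA-DMB, a class II peptide editor named after its values were seen, was called higher in RBE without HCCC9810 library 8 (adjusted p = 0.0426, against 0.0557 with all libraries). It was also called higher with other scaling of the edgeR fit, with no filter on low counts, with the 6 control libraries alone, on the RPKM scale and with GC and length offsets. B2M, the light chain of class I molecules, had 299.6, 382 and 315 CPM in the RBE libraries and 1233, 1064 and 1195 CPM in the HCCC9810 libraries (log2 fold change -1.81 ± 0.15, adjusted p = 3.32e-08). TAPBP, which loads peptides on them, averaged 102 ± 11.3 CPM in RBE and 411 ± 28.4 CPM in HCCC9810 (log2 fold change -2.01 ± 0.13, adjusted p = 2.32e-09).

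PSMB9, a subunit of the immunoproteasome, averaged 2.92 ± 2.03 CPM in RBE and 44.3 ± 5.44 CPM in HCCC9810 (log2 fold change -3.94 ± 0.49, adjusted p = 1.58e-05). ERAP2, which trims peptides, averaged 3.71 ± 1.04 CPM in RBE and 73.3 ± 12.1 CPM in HCCC9810 (log2 fold change -4.33 ± 0.27, adjusted p = 9.67e-09). MICB, a stress ligand of killer cells, had no count in RBE and averaged 5.61 ± 0.968 CPM in HCCC9810, so that RBE was at least 151-fold lower by summed counts. CD74, the class II chaperone, was lower in RBE as well (-3.79 ± 0.23).

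Interferon response genes that passed the test were all lower in RBE. Of 36 listed 35 were tested, none was higher in RBE and 29 were lower, 15 of them at least 4-fold, with a median log2 fold change of -1.75. Of the 29, 22 were also called lower in the anlotinib libraries. BST2, a membrane protein that tethers viruses, had 1.15, 1.40 and 1.34 CPM in the RBE libraries and 202, 178 and 168 CPM in the HCCC9810 libraries (log2 fold change -7.14 ± 0.15, adjusted p = 4.33e-14). SAMD9 (-4.59 ± 0.49) and its neighbour SAMD9L (-8.44 ± 0.57) on chromosome 7, both antiviral factors, and OAS1, an RNA sensor (-3.47 ± 0.17), were lower in RBE. IFITM3, a membrane antiviral protein, averaged 100.1 ± 12.2 CPM in RBE and 496 ± 104 CPM in HCCC9810 (log2 fold change -2.31 ± 0.20, adjusted p = 1.21e-07).

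The element recognised by interferon-activated factors was searched as GAAA, any 2 bases and GAAA, on both strands, in the 250 bases before each start in the RefSeq promoter table for GRCh38.p14. It was present for 1014 of 27305 genes (3.71%), for 394 of 11641 tested genes (3.38%), for 19 of the 27 interferon response genes in the promoter table (70.4%), and for 7 of the 22 antigen presentation genes there (31.8%). The interferon response list is made of genes known for such sites, so its share describes the list, and a match is a string of letters and not evidence of binding. Shares of small lists varied widely. The element was present for 3 of 6 fibroblast and stellate markers (50%), 5 of 19 mesenchymal genes (26.3%) and 0 of 37 receptor kinase ligands. Among tested genes at least 4-fold lower in RBE it was present for 46 of 902 (5.1%), and among those at least 4-fold higher for 32 of 876 (3.65%). Windows of 4 genes lower in RBE are shown with IFIT1, chosen after its values were seen because it holds matches and its difference did not pass the test (6.41 ± 0.502 CPM in RBE and 5.89 ± 1.29 CPM in HCCC9810, log2 fold change 0.11 ± 0.19, adjusted p = 0.634); capitals mark the matches, windows are 60 bases written 5′ to 3′ on the strand of the gene, and where a gene has several listed starts one with a match is shown.
BST2, chr19:17405720-17405779, minus strand: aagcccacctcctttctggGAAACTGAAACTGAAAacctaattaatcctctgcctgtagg
SAMD9, chr7:93118081-93118140, minus strand: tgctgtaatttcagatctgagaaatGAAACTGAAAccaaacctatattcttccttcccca
MX1, chr21:41431829-41431888, plus strand: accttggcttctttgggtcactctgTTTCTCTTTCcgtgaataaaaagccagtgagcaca
B2M, chr15:44711354-44711413, plus strand: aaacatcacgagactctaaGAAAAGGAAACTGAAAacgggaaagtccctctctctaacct
IFIT1, chr10:89392495-89392554, plus strand: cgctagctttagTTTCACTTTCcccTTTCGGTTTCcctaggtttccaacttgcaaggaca

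MX1, an antiviral GTPase, averaged 2.04 ± 0.500 CPM in RBE and 26.7 ± 0.670 CPM in HCCC9810 (log2 fold change -3.73 ± 0.19, adjusted p = 1.55e-10). Of 24 immune checkpoint genes 22 were tested, with 5 higher in RBE and 14 lower and a median of -1.07. CD70, the ligand of CD27, averaged 0.365 ± 0.257 CPM in RBE and 43.2 ± 2.85 CPM in HCCC9810 (log2 fold change -7.00 ± 0.24, adjusted p = 2.67e-12). PDCD1LG2, a ligand of PD-1, differed by -6.15 ± 0.56. CD276, of the B7 family, was higher in RBE (228 ± 13.96 CPM in RBE and 169 ± 24.0 CPM in HCCC9810, log2 fold change 0.43 ± 0.15, adjusted p = 0.0167), and its adjusted p was 0.0547 without HCCC9810 library 8. VTCN1 was higher in RBE (1.42 ± 0.25).

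Detoxification genes were lower in RBE more often than higher, with 13 higher and 25 lower of 41 tested and a median log2 fold change of -0.72. ALDH3A1, an aldehyde dehydrogenase, had 1.40, 1.83 and 1.53 CPM in the RBE libraries and 1858, 1308 and 1377 CPM in the HCCC9810 libraries (log2 fold change -9.91 ± 0.36, adjusted p = 7.59e-11). GSTP1, the glutathione transferase of duct epithelium, averaged 5.08 ± 0.605 CPM in RBE and 174 ± 19.8 CPM in HCCC9810 (log2 fold change -5.09 ± 0.15, adjusted p = 8.74e-13). HMOX1, the heme oxygenase, differed by -3.17 ± 0.18. NRF2 targets were not uniform, since TKT of the pentose phosphate pathway (0.85 ± 0.14) and ME1 (1.34 ± 0.10) were higher in RBE. GSTM1 averaged 9.90 ± 0.408 CPM in RBE and had no count in HCCC9810, in the controls or under anlotinib. In the HCCC9810 controls GSTM3 averaged 145 CPM and GSTM4 0.759 CPM. The GSTM family contains close copies, so the counts of its members are uncertain.

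CYP24A1, the enzyme that degrades vitamin D, was higher in RBE (166 ± 9.18 CPM in RBE and 28.5 ± 7.37 CPM in HCCC9810, log2 fold change 2.55 ± 0.16, adjusted p = 2.30e-09). The cytochrome list had 25 of 42 genes tested, 5 higher in RBE and 14 lower, with a median of -0.66. CYP4F3 and CYP4F12 were lower in RBE (-6.49 ± 0.24 and -6.87 ± 0.25), and these too are members of a family of close copies. EPHX1, the microsomal epoxide hydrolase, averaged 103 ± 4.39 CPM in RBE and 362 ± 13.6 CPM in HCCC9810 (log2 fold change -1.81 ± 0.15, adjusted p = 5.23e-08).

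Of 29 drug and bile transporters 25 were tested, 9 higher in RBE and 11 lower, with a median of -0.31. ABCC2, which exports conjugates into bile, averaged 48.6 ± 1.69 CPM in RBE and 4.20 ± 0.643 CPM in HCCC9810 (log2 fold change 3.53 ± 0.14, adjusted p = 1.35e-11). SLC22A3, an organic cation transporter, averaged 62.2 ± 2.05 CPM in RBE and 2.67 ± 0.281 CPM in HCCC9810 (log2 fold change 4.54 ± 0.16, adjusted p = 3.03e-12). ABCG2, an exporter of many drugs, had 0.179, 0.377 and 0.183 CPM in the RBE libraries and 74.8, 71.8 and 67.5 CPM in the HCCC9810 libraries (log2 fold change -8.25 ± 0.21, adjusted p = 1.80e-13). SLCO2A1, the prostaglandin transporter, averaged 0.410 ± 0.108 CPM in RBE and 93.3 ± 5.88 CPM in HCCC9810 (log2 fold change -7.83 ± 0.25, adjusted p = 1.35e-12). The difference in ABCG2 was smaller in the anlotinib libraries (log2 -5.71).

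Sterol and fatty acid genes were higher in RBE by modest folds, with 17 of 30 higher and 7 lower and a median log2 fold change of 0.59. SCD, the stearoyl-CoA desaturase, averaged 638 ± 65.5 CPM in RBE and 197 ± 4.01 CPM in HCCC9810 (log2 fold change 1.70 ± 0.11, adjusted p = 2.33e-09). ACLY, which makes cytosolic acetyl-CoA, was higher as well (1.62 ± 0.14).

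Glycolysis and hypoxia genes had 11 higher in RBE and 14 lower of 30 tested, with a median of -0.15. SLC2A1, the glucose transporter (-1.87 ± 0.15), and HK2, hexokinase 2 (-3.24 ± 0.11), were lower in RBE. PKM differed by -0.11 ± 0.13, which did not pass the test, and GAPDH by -0.39 ± 0.15 (adjusted p = 0.0294), a call lost when any 1 of the 6 libraries was left out (adjusted p 0.0581 to 0.23).

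Cell cycle genes did not separate the lines as the secretory genes did. Of 25 proliferation genes, all tested, 10 were higher in RBE and 7 lower, with a median log2 fold change of 0.19, and none was at least 4-fold higher. MKI67 had 606, 610.1 and 547 CPM in the RBE libraries and 279.8, 410.4 and 382 CPM in the HCCC9810 libraries (log2 fold change 0.72 ± 0.15, adjusted p = 0.000592). CCNB1, a cyclin of mitosis, averaged 275 ± 13.1 CPM in RBE and 101 ± 17.5 CPM in HCCC9810 (log2 fold change 1.44 ± 0.16, adjusted p = 1.08e-06), but both had the opposite sign in the anlotinib libraries (log2 -0.46 and -0.90). RRM2, a subunit of ribonucleotide reductase, was lower in RBE (66.6 ± 0.414 CPM in RBE and 415 ± 15.6 CPM in HCCC9810, log2 fold change -2.64 ± 0.13, adjusted p = 1.81e-10).

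Among 23 gatekeepers of the cycle 20 were tested, 4 higher in RBE and 11 lower. CDKN2A, the gene of p16, had 0.0358, 0.108 and 0 CPM in RBE and 0.134, 0.0530 and 0.134 CPM in HCCC9810 and was not tested for lack of counts in both lines. MTAP (chr9:21802543-21937651), the methylthioadenosine phosphorylase gene beside it on chromosome 9, had 0, 0.108 and 0.0611 CPM in the RBE libraries and 59.2, 71.8 and 67.3 CPM in the HCCC9810 libraries (log2 fold change -10.20 ± 0.31, adjusted p = 7.46e-13). CDK6 averaged 126 ± 13.8 CPM in RBE and 273 ± 39.8 CPM in HCCC9810 (log2 fold change -1.12 ± 0.23, adjusted p = 0.000774). CDKN1A, the gene of p21, averaged 219 ± 28.3 CPM in RBE and 447 ± 56.2 CPM in HCCC9810 (log2 fold change -1.03 ± 0.14, adjusted p = 8.42e-06).

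Among oncofetal and imprinted genes the difference was led by H19, an imprinted long non-coding RNA, which had 0.753, 1.40 and 1.13 CPM in the RBE libraries and 12601, 9316 and 10188 CPM in the HCCC9810 libraries (log2 fold change -13.28 ± 0.63, adjusted p = 2.05e-09). By deposited RPKM it stood at 0.392 ± 0.117 RPKM in RBE and 3555 ± 400.1 RPKM in HCCC9810, where GAPDH stood at 1789 ± 65.4 RPKM in RBE and 2175 ± 156 RPKM in HCCC9810. HMGA2, a chromatin protein of fetal tissue, was higher in RBE (82.9 ± 3.73 CPM in RBE and 12.1 ± 2.31 CPM in HCCC9810, log2 fold change 2.77 ± 0.27, adjusted p = 1.19e-06), as was HMGA1 (2.36 ± 0.18), and MEST, an imprinted gene, was lower (-2.44 ± 0.10). Of 23 genes 15 were tested, 5 higher in RBE and 5 lower.

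Homeobox cluster genes differed between the lines within and between clusters. Of 39 members 17 were tested, 7 higher in RBE and 9 lower, all but 1 of these calls at least 4-fold. HOXB6 had 2 counts over the HCCC9810 libraries and averaged 14.9 ± 2.52 CPM in RBE and 0.0298 ± 0.0516 CPM in HCCC9810, and HOXB5 differed by 5.84 ± 0.31 and HOXB3 by 1.96 ± 0.16, all higher in RBE. HOXC6 (-4.46 ± 0.36) and HOXC13 (-6.31 ± 0.34) were lower, and so was HOXB9 (-2.07 ± 0.19) of the same cluster as HOXB6. No HOXD gene could be tested.

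The 15 protein-coding genes with the largest fold change towards RBE, among those with at least 20 CPM there and no overlap of ranges, spanned several functions. PPP2R2C (chr4:6320578-6563600), a regulatory subunit of protein phosphatase 2A, averaged 36.6 ± 3.70 CPM in RBE and had no count in HCCC9810, so that RBE was at least 696-fold higher by summed counts. STC1, the secreted hormone stanniocalcin, had 1 count in HCCC9810 and averaged 40.0 ± 2.79 CPM in RBE and 0.0149 ± 0.0258 CPM in HCCC9810, a level higher in RBE by 2270-fold, with a counting interval of 407 to 89700. GPC6, a glypican of the cell surface, averaged 53.4 ± 8.30 CPM in RBE and 0.0326 ± 0.0285 CPM in HCCC9810 with 2 counts in HCCC9810. The HCCC9810 libraries held at most 2 reads of each of these 3 genes, so the size of the fold rests on these few reads.

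HAVCR1, the kidney injury molecule, had 69.0, 84.3 and 61.0 CPM in the RBE libraries and 0.0672, 0.159 and 0 CPM in the HCCC9810 libraries (log2 fold change 9.86 ± 0.33, adjusted p = 1.98e-12). MYL9, a light chain of smooth muscle myosin, averaged 111 ± 15.5 CPM in RBE and 0.0624 ± 0.0676 CPM in HCCC9810 (log2 fold change 10.51 ± 0.39, adjusted p = 1.47e-11). LAD1, a basement membrane anchor, averaged 155 ± 19.8 CPM in RBE and 0.219 ± 0.228 CPM in HCCC9810 (log2 fold change 9.47 ± 0.29, adjusted p = 1.10e-12). APBA2, PRDM8, SCN9A, SYT13, CCDC198 and F13A1 were also among the 15. KIF12, a kinesin of kidney and liver epithelium, averaged 101 ± 7.60 CPM in RBE and 0.0727 ± 0.0311 CPM in HCCC9810 (log2 fold change 10.37 ± 0.21, adjusted p = 4.33e-14).

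The 15 with the largest fold change towards HCCC9810 included 11 already described: SERPINB2, TFF2, AGR2, CDH11, ST6GALNAC1, KLK10, BPIFB1, SPINK4, WNT11, MTAP and LUM. The remaining 4 were CFAP65, SPIN4, IGSF1 and WWC3. IGSF1, a membrane glycoprotein of the pituitary, averaged 0.0102 ± 0.0176 CPM in RBE and 30.7 ± 4.33 CPM in HCCC9810 with 1 count in RBE, and WWC3, a regulator of Hippo signalling on the X chromosome, averaged 0.0401 ± 0.0123 CPM in RBE and 67.1 ± 6.51 CPM in HCCC9810 with 3 counts in RBE.

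Line differences were uneven over the chromosomes. The median log2 fold change over the tested genes was highest on chromosomes 15 (0.52 over 604 genes) and 10 (0.51 over 716) and lowest on chromosomes X (-0.54 over 578) and 7 (-0.51 over 948). On chromosome 10, 52.9% of tested genes were higher in RBE and 16.1% lower, and on chromosome 7, 15.5% were higher and 53.1% lower. The anlotinib libraries gave medians of 0.71 on chromosome 15, 0.64 on chromosome 10, -0.45 on X and -0.42 on 7. These values are a description, no test was made of them, and no DNA copy number was measured.

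**Figure D4:**
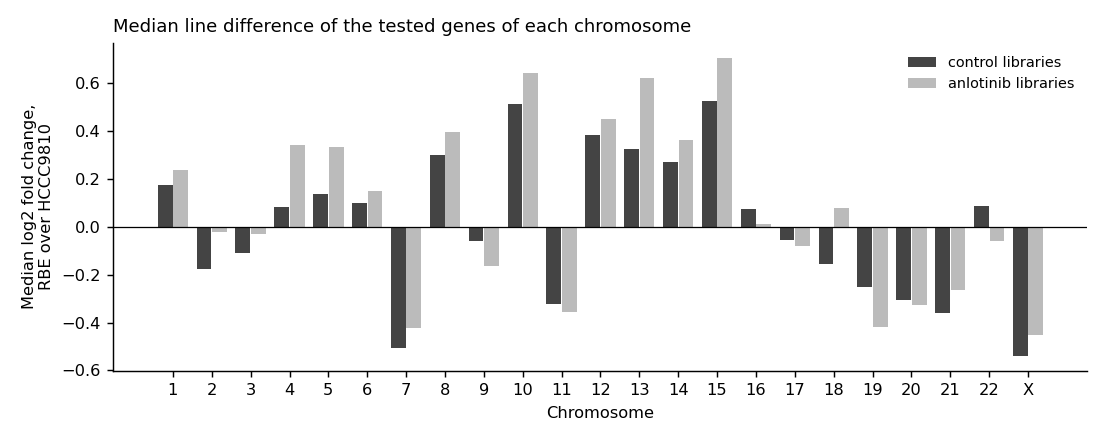
Median log2 fold change of RBE over HCCC9810 for the tested genes of each chromosome, in the control libraries (dark) and in the anlotinib libraries (light). Chromosomes 15 and 10 have the highest control medians and X and 7 the lowest, and the anlotinib libraries have the same sign at these 4.

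The named genes kept their direction under anlotinib in most cases, and 7 are listed below as turned in sign. Proliferation genes, with small differences, repeated less often: 10 were higher and 7 lower in the controls, and 7 of these calls recurred in the same direction. The examples that follow had large differences in the controls. AGR2 averaged 0.651 ± 0.375 CPM in RBE and 455 ± 64.0 CPM in HCCC9810 under the drug (log2 -9.61). PKHD1 averaged 80.3 ± 12.6 CPM in RBE and 0.118 ± 0.108 CPM in HCCC9810 (log2 9.43). CDH1 averaged 71.5 ± 2.02 CPM in RBE and 0.170 ± 0.116 CPM in HCCC9810 there (log2 8.61). C3 averaged 5.44 ± 0.405 CPM in RBE and 1473 ± 415 CPM in HCCC9810 (log2 -8.07). In all 4 the direction was that of the controls, which differences of this size made likely beforehand.

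**Figure D5:**
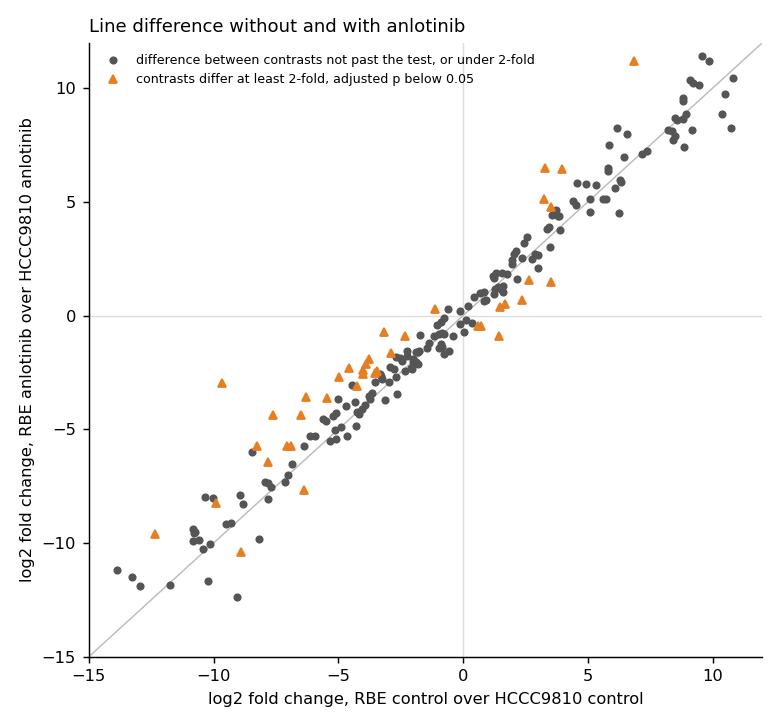
Log2 fold change of RBE over HCCC9810 in the control libraries (x axis) and in the anlotinib libraries (y axis) for the tested genes described in the text, without some named only by symbol. Triangles mark those whose difference changed at least 2-fold at an adjusted p below 0.05, and the diagonal marks equal values. Most points lie near the diagonal, and the triangles include AGR2 and ABCG2, whose differences were smaller under the drug.

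Some named genes share exon bases with another annotated gene, and since the strand setting of the counting is not given in the sources used here, reads there may belong to either. The shared part of the exon bases was 46.1% for CLDN10, 44.0% for VIL1, 38.3% for GSTM1, 32.9% for HOXB6, 31.1% for PLAU and 27.4% for MEST. It was 26.5% for AQP1, 25.2% for AXIN2, 24.4% for VIM, 21.3% for IFITM3, 20.2% for RRM2, 19.9% for SERPINB2 and 18.5% for ELF3. It was 16.3% for KRT13, 16.2% for CEACAM5, 15.8% for PDGFRA, 15.7% for HOXC6, 14.2% for GATA6, 14.2% for GAPDH, 13.2% for HOXB3, 11.9% for DCDC2, 11.9% for FGF2, 10.3% for CCND1 and 10.0% for TIMP2. The other named genes shared at most 10%.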

How the data were processed

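RNA from 2 lines with and without anlotinib was sequenced as paired reads, per the labels' protocols, in 3 libraries per group. For 58216 Ensembl genes the authors deposited raw counts, and RPKM, which divide the count by gene length and library total. HISAT2 and GRCh38 are named in the submitters' processing notes. The counter, strand setting and treatment of reads with several matches are not given in the sources used here, so close copies and overlapping genes are uncertain. Gene positions, overlaps and GC content came from GENCODE 29, which held all these identifiers. The counts as deposited were tested in edgeR 4.0.16 (R 4.3.3; filterByExpr, TMM, robust quasi-likelihood fit) with a mean for each of the 4 groups over all 12 libraries, and p-values were adjusted by Benjamini-Hochberg over all 18035 genes tested. Levels are CPM on TMM library sizes, computed from the deposited counts, and the deposited RPKM served to compare levels between genes.

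Nothing in the labels says that the libraries of a group came from separate cultures, so p-values measure the spread between these libraries, which may be technical. Chi-square per degree of freedom between libraries of a line was 9.06 to 27.9 in RBE and 3.48 to 31.9 in HCCC9810, above sampling noise, with HCCC9810 library 7 apart from the other 2. Mitochondrial mRNA made up 6.18% to 7.16% of counts in RBE and 4.54% to 5.72% in HCCC9810, and its part in the results was not tested. Intervals on folds with 1 to 3 counts are exact at 95% and cover counting error only, as do floors of 3 counts.

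The genes and the 42 lists (1207 genes, 953 tested) were chosen with earlier results of these data known, and no list is given as independent support. Genes were named by rule: the 15 called protein-coding genes with the largest change each way among those with at least 20 CPM in the higher line and ranges that do not overlap; from each list up to 5 called members each way with the largest change and at least 5 CPM, and up to 3 members with the highest mean; and a set of cholangiocarcinoma genes (KRT7, KRT19, EPCAM, SOX9, ALB, VIM, CDH1, EGFR, MET, ERBB2, FGFR1 to FGFR4, CDKN2A, MKI67). Not all genes the rule named are described, and some genes and results are not reported here. Genes of chromosome Y were left out.

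On simulated counts for this comparison (17827 genes, changed sets per fold size), 4.83% of 476 calls were false. There the fit recovered 38.5% of 1.5-fold, 88.5% of 2-fold and 99.5% of 4-fold changes. The changed genes were drawn only from those above a minimum expected count, and the simulated spread followed the trend over genes. These rates therefore do not cover genes with few counts or with a spread above that trend. In the data 11558 genes were called, and whether these rates hold with so many differences was not tested. Alternatives were DESeq2 1.42.0, other scaling and filters, the 6 control libraries alone, limma 3.58.1 on log2(RPKM + 1) and log2(RPKM + 0.1), GC and length offsets, the columns headed as treated, and leaving out each control library. Promoter letters are from the RefSeq table for GRCh38.p14.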

Additional observations from a re-analysis of the deposited data

Results flagged for a closer look

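The line difference itself changed under anlotinib, by the interaction contrast at an adjusted p below 0.05 and by at least 1 on the log2 scale, for 39 of the genes described here. Some genes named only by symbol were left out of this count. Among them CFAP65, with 1 count in the RBE controls, also passed, with a change of 4.77. The values are the log2 fold change of RBE over HCCC9810 in the anlotinib libraries minus that in the control libraries, from the edgeR quasi-likelihood test, and over all genes 16.6% passed it.

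Most of these genes were lower in RBE and less so under the drug. KRT4, a keratin of stratified mucosa, changed most among them, by 6.7, and under anlotinib it averaged 1.503 ± 0.116 CPM in RBE and 11.8 ± 2.07 CPM in HCCC9810. Its partner KRT13 changed by 3.25 and KRT19 by 1.42. AGR2, the mucin-folding isomerase, changed by 2.72. The value was 2.76 for HOXC13, 2.53 for ABCG2, 2.44 for HMOX1, 2.3 for SAMD9, 2.29 for FBN1 and 2.13 for CYP4F3. It was 1.87 for AXIN2, 1.81 for ALOX5, 1.77 for ID3, 1.69 for ALDH3A1, 1.63 for GPRC5A, 1.46 for LOX, 1.37 for EFEMP1 and 1.3 for PLAT. The smaller values were 1.23 for FGFR2, 1.18 for PTGES, 1.16 for SNAI2, 1.04 for GDF15 and 1.02 for OAS1. CDK6 changed by 1.4 and its difference had the opposite sign under the drug.

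The difference was wider towards RBE under anlotinib for 5 genes. CLDN10, the claudin of ion-transporting epithelia, changed by 4.34, and HCCC9810 had no count of it under the drug. FGG changed by 3.18, WNT5A by 2.49, PROX1 by 1.89 and ABCC2 by 1.25. The size of the fitted change in CLDN10 and in FGG depends on the few counts of these genes in HCCC9810. In HCCC9810 FGG averaged 0.556 ± 0.313 CPM in the controls and 0.0710 ± 0.0711 CPM under anlotinib. In RBE it averaged 5.90 ± 2.89 CPM and 6.48 ± 0.233 CPM.

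Among genes higher in RBE the difference was smaller under anlotinib for FCGBP (-2.07), HMGA1 (-1.7), SCD (-1.2), ETV4 (-1.12) and IL32 (-1.1). For CCNB1 (-2.34), MKI67 (-1.17) and SERPINA1 (-1.04) its sign was turned. Among genes lower in RBE it was wider for CEACAM6 (-1.52) and IL1B (-1.28).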

How the results depend on the processing

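The counts of genes called higher or lower stayed within 1.5 times their value under every alternative tried. At the 4-fold threshold 3 counts moved further: 2375 genes were lower in RBE with no filter on low counts, and with limma on log2(RPKM + 1) 279 were higher and 417 lower, against 1033 and 1094 with a pseudocount of 0.1. Leaving out 1 of the 6 control libraries at a time gave 10747 to 11430 called genes, 5529 to 5929 higher and 5190 to 5501 lower, 1558 to 1646 at least 4-fold higher and 1574 to 1655 at least 4-fold lower. Scaling to library totals moved the balance of calls to 6325 higher and 5330 lower, against 5676 and 5882. Limma on log2(RPKM + 1), which changes the test, unit and scaling together, gave 6328 higher and 5271 lower. The median log2 fold change over all genes was 0.09 with library totals, against -0.01. Taking the columns headed as treated in place of the controls turned the sign for CCNB1 (-0.90), CDK6 (0.28), KRT8 (0.30), LIF (-0.73), MKI67 (-0.46), SERPINA1 (-0.44) and VEGFA (-0.34), and the cause was not tested. ZEB1 lost its call with no expression filter (adjusted p = 0.0648) and GAPDH with ratio-method size factors (adjusted p = 0.0677), while ERBB2 gained one with GC and length offsets (adjusted p = 0.023) and SOX9 with library totals (adjusted p = 0.0493). CCND1 (adjusted p = 0.0668) and PTCH1 (adjusted p = 0.522) passed in the controls and not under anlotinib. With GC and length offsets the correlation of log2 fold change with GC content over 11400 genes, a description across genes that are not independent, was -0.00119, against -0.0319 without them. List medians depended on the processing, both near 0 and far from it. That of glycolysis and hypoxia genes was 0.01 without HCCC9810 library 7. With the stricter filter on low counts the median of cholangiocyte markers was 0.75, against 1.98, and that of gastric and intestinal markers 3.54, against 1.61. With limma on log2(RPKM + 1) the median was 0.47 for cholangiocyte markers, -0.63 for squamous markers, against -4.04, and -0.19 for mucus genes, against -2.24. Below the floor of 3 counts, 0.0379 CPM over the RBE and 0.0535 CPM over the HCCC9810 libraries, a transcript was not detectable at this depth. No paired analysis was possible because the labels and headers give the lines different numbers.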

Other observations

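Large differences ran in stretches of neighbouring genes. By a rule chosen after the values were seen, runs of at least 3 consecutive tested protein-coding genes that all differed at least 16-fold in 1 direction were listed, and 39 were found. No test was made of their number, and DNA copy number and methylation were not measured.

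The longest run higher in RBE held 7 genes of chromosome 10, from HACD1 to NEBL (log2 fold changes 4.62 to 10.88). By number of runs those higher in RBE were led by zinc finger genes of chromosome 19. Many of these are repressors with a KRAB domain that lie in dense clusters. There 7 runs held such genes, among them ZNF491, ZNF440, ZNF439 and ZNF69 (log2 fold changes 4.98 to 6.36) and ZNF569, ZNF570 and ZNF793 (6.48 to 8.09), and the highest mean in HCCC9810 over these 7 runs was 0.4 CPM. On chromosome 5 another run held ZNF354B, ZFP2, ZNF879 and ZNF354C (4.69 to 10.80), and 1 held 5 clustered protocadherin genes from PCDHA3 to PCDHB2 (4.81 to 9.82). These families contain close copies, so counts of single members are uncertain.

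Runs lower in RBE included clusters of secreted proteins, TFF3, TFF2 and TFF1 on chromosome 21, BPIFB4 to BPIFB1 on chromosome 20, and KLK5, KLK6 and KLK10 on chromosome 19. On chromosome 9, IFNE, MTAP and DMRTA1 (21480839 to 22455740), which flank the untested CDKN2A, were lower in RBE with log2 fold changes of -10.46 to -9.32, and no gene of the run averaged above 0.0563 CPM in RBE. On the X chromosome 4 runs were lower in RBE, with 10 genes from PAGE1 to KANTR (49687450 to 53170914) and 4 from SPIN4 to MTMR8 (63347228 to 64395431), and the highest mean in RBE over these 2 runs was 0.11 CPM.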
